A study of Mus musculus with 12 samples.

Results

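The oligoadenylate synthetase genes Oas1a, Oas1b, Oas1g, Oas2, Oas3, Oasl1 and Oasl2 were followed by RNA-seq in mouse peritoneal macrophages (PMφs). They were chosen by gene symbol and make up 7 of the 43278 rows in the deposited table. The 12 libraries came from wild-type C57BL/6J mice, for which the methods give both sexes and an age of 8 to 12 weeks, with cells lavaged 4 days after 1 injection of 4% thioglycolate, pooled and split among the groups. The sex transcripts given below do not show both sexes in every library. Adherent PMφs were left untreated (control), cultured for 24 h with 100 µg/ml oxidized human LDL of medium grade (oxLDL), the modified lipoprotein that loads foam cells, given 10 ng/ml ultrapure LPS (LPS), or given oxLDL and then LPS (oxLDL+LPS), with 3 libraries in each group. How long LPS was applied in these libraries is not given in the sources used here. The thioglycolate-elicited cell is a recruited inflammatory macrophage and not a macrophage of the arterial wall. The question put to these genes was how strongly LPS raised them and whether oxLDL accumulation altered their level or their LPS response.

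Oas enzymes bind double-stranded RNA and join ATP into short 2′-5′-linked oligoadenylates, known as 2-5A, a second messenger of antiviral defence. The genes are classical interferon-stimulated genes. In macrophages LPS reaches them through TLR4 and its adaptor TRIF, which lead to IFN-β, and IFN-β acts through its receptor on the factor complex ISGF3, which binds the interferon-stimulated response element (ISRE) in promoters.

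The 7 genes lay on chromosome 5 in 2 groups (GRCm38, GENCODE vM21). Oas1a, Oas1b, Oas1g, Oas2 and Oas3 belonged to a cluster of 10 Oas genes between positions 120730333 and 120921652, and Oasl2 and Oasl1 stood next to each other between 114896936 and 114937915. Oas1b is annotated as a polymorphic pseudogene, and its truncation in common laboratory strains is the known basis of their susceptibility to flaviviruses. The other members are annotated as protein coding. Oas1a and Oas1g are near copies of each other. Of all 50-base windows in the longest transcript, 57.6% of those of Oas1a and 54.7% of those of Oas1g occurred in another Oas transcript, against 1.34% for Oas1b and 0 for Oas2, Oas3, Oasl1 and Oasl2. Of 150-base windows, 32.4% of those of Oas1a, 30.1% of those of Oas1g and 0 of those of Oas1b were shared. How the counting treated reads from the shared stretches is not stated. The split between Oas1a and Oas1g is thus uncertain, and so is the level of each beside the other members.

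RefSeq promoter windows (GRCm38.p6, 250 bases before the start to 50 after) were at hand for 5 of the 7 members, namely Oas1a, Oas1g, Oas3, Oasl1 and Oasl2. The ISRE-like letters GAAA, any 2 bases and GAAA again, searched on both strands, occurred in 3.44% of all 32851 windows. They were present in the windows of Oas1a, Oas1g and Oas3 and not in those of Oasl1 and Oasl2. These 3 stretches, which end 1 base before the start in Oas1a and Oas1g and 6 bases before it in Oas3, are shown 5′ to 3′ on the minus strand, because they carry the matching letters, which are in capitals.
Oas1a, chr5:120907526-120907605: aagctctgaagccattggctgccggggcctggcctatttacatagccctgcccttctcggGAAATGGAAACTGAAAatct
Oas1g, chr5:120887614-120887691: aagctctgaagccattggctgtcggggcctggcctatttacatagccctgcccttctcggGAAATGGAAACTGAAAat
Oas3, chr5:120777665-120777794: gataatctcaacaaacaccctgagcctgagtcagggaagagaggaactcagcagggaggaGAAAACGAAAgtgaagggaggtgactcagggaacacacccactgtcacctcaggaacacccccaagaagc
In Oas1a and Oas1g 2 overlapping matches, beginning 20 and 14 bases before the start of Oas1a and 18 and 12 before that of Oas1g, formed the same run of capitals. The stretches printed were identical at 77 of the 78 bases compared (98.7%), and the whole windows at 207 of 298 (69.5%). In Oas3 the match began 75 bases before the start. Windows were also at hand for Oas1c, Oas1f and Oas1h, Oas genes outside the 7. That of Oas1c held 2 matches, beginning 114 and 108 bases before its start, and those of Oas1f and Oas1h held none. The interferon-gamma type letters TTCNNNGAA, which read the same on both strands, occurred in 8.3% of all windows and, among the members, in that of Oas1a. A match of letters is a description and not evidence of binding.

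The libraries implied 16725738 to 26178431 counted reads each. The summed level of 7 macrophage markers was 230743 to 324472 in every library, while those of B, T and NK cells, neutrophils and mast cells were at most 251. Plasmacytoid dendritic cell markers summed to 1529 to 1726 without LPS and 10063 to 13247 with LPS, largely through Bst2, itself an interferon-stimulated gene, with Siglech and Klk1 at or near 0. The 3 of these 5 genes that could be tested, Bst2 among them, were called higher with LPS (limma adjusted p under 0.1), without and with oxLDL. Their median differences were 2.13 and 2.68 on the log2 scale, beside 31.4% and 28.2% of all genes tested called higher. Transcripts that mark sex did not match across LPS in replicate 1. Summed over 4 Y-linked genes they were 3138 in the control and 3009 in the oxLDL library but 1023 in the LPS and 1004 in the oxLDL+LPS library, and the level of Xist was 1 and 2 against 6331 and 3812. Replicate 2 had at most 2 counts from the Y-linked genes in any group. The libraries of replicate 1 thus did not match between the LPS states.

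LPS raised all 7 Oas genes in PMφs without oxLDL. Values are normalized counts, the deposited counts after division by 1 factor per library. Oasl1, a family member without synthetase activity that is known to hold back the translation of Irf7 mRNA, was 139, 153 and 123 in control replicates 1 to 3 and 25934, 19931 and 32970 in LPS replicates 1 to 3. Oasl2, an active synthetase in the mouse, was 525, 706 and 625 in control libraries and 24148, 31015 and 35182 with LPS. For both genes the lowest LPS library was far above the highest control library. Oas1a, the main small synthetase of the mouse, was 459, 533 and 547 in control libraries and 6025, 7281 and 7351 with LPS. Its near copy Oas1g was 53, 95 and 84 in control libraries and 2836, 4550 and 4405 with LPS. Oas1b was 39, 56 and 57 in control libraries and 797, 1057 and 1115 with LPS. The ranges were again apart for these 3 Oas1 genes, and so they were for the larger enzymes, which are built of repeated synthetase units. Oas2 was 137, 139 and 259 in control libraries and 6564, 7287 and 10041 with LPS. Oas3, which prefers long double-stranded RNA, was 1005, 1057 and 1099 in control libraries and 13818, 19340 and 18254 with LPS.

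The ratio of the group means ran from 13.4 for Oas1a to 190.0 for Oasl1. On the log2(value + 1) scale the differences were 7.53 ± 0.18 (standard error, 3 libraries per group) for Oasl1, 5.66 ± 0.26 for Oas1g, 5.60 ± 0.17 for Oasl2 and 5.52 ± 0.27 for Oas2. They were 4.27 ± 0.20 for Oas1b, 4.01 ± 0.14 for Oas3 and 3.74 ± 0.12 for Oas1a. All 7 passed the test of limma, fitted on all genes with Benjamini-Hochberg adjustment, with adjusted p from 1.54e-07 for Oasl1 to 2.49e-06 for Oas2. LPS moved much of the transcriptome, and 31.4% of the 13023 genes tested were called higher and 30.3% lower at an adjusted p under 0.1. The median difference of the 7 members was 5.52, against 0.00 over all genes tested. The groups did not overlap for any of the 7, which also held, in the higher direction, for 32.1% of all genes tested. For a single gene the exact two-sided permutation test of 3 against 3 libraries can reach no lower than 0.1, the value each member had. In bulk RNA, a change in the share of cells that carry a transcript cannot be told apart from a change in its level per cell.

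**Figure D1:**
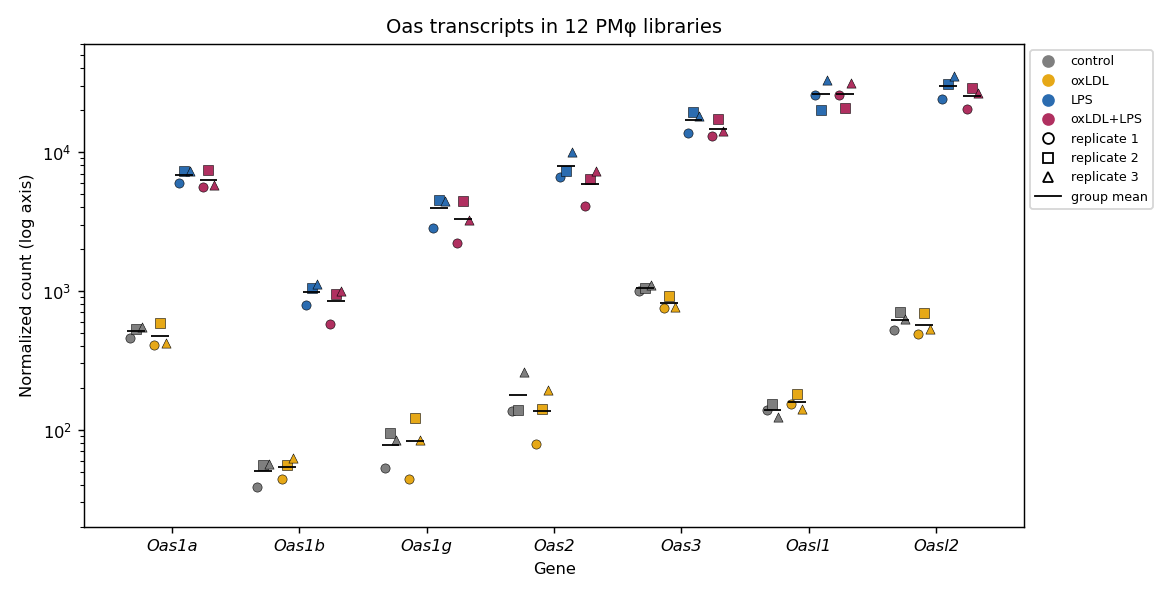
Normalized counts of the 7 Oas genes (log axis) in the 12 PMφ libraries, colored by group, with the replicate number as the symbol and the group mean as a line. Every LPS and oxLDL+LPS library lies above every library without LPS for each of the 7 genes.

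LPS also raised all 7 Oas genes in PMφs with accumulated oxLDL. Oasl1 was 152, 181 and 140 in oxLDL libraries and 25633, 20662 and 31664 in oxLDL+LPS libraries. Oasl2 was 490, 693 and 529 with oxLDL and 20437, 29122 and 26485 with oxLDL+LPS. Oas1a was 409, 588 and 421 with oxLDL and 5556, 7430 and 5818 with oxLDL+LPS. None of these ranges overlapped, nor did those of the remaining 4, as was so in the higher direction for 29.6% of all genes tested. Oas1b was 44, 56 and 63 with oxLDL and 581, 947 and 990 with oxLDL+LPS, and Oas1g was 44, 121 and 84 with oxLDL and 2211, 4456 and 3248 with oxLDL+LPS. Oas2 was 79, 140 and 192 with oxLDL and 4065, 6375 and 7292 with oxLDL+LPS, and Oas3 was 757, 921 and 760 with oxLDL and 13004, 17177 and 14082 with oxLDL+LPS. The differences on the log2(value + 1) scale ran from 3.73 ± 0.17 for Oas1a to 7.34 ± 0.17 for Oasl1 (standard error, 3 libraries per group). All 7 were called higher by limma, with adjusted p from 2.34e-07 for Oasl1 to 3.92e-05 for Oas1g, beside 28.2% of the 12900 genes tested, while 26.3% were called lower. The median was 5.36, against -0.02 over all genes tested. Without replicate 1, whose sex transcripts did not match, and paired by number, all 7 were again called in both comparisons, with differences of 3.76 to 7.54 for LPS against control and of 3.72 to 7.32 for oxLDL+LPS against oxLDL.

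The scaling of the libraries moved the calls among all genes but not those of the members. With every library scaled to the same total, the median difference of all genes moved by -0.48 for LPS against control and by -0.39 for oxLDL+LPS against oxLDL. The called genes then split into 2210 higher and 7200 lower, in place of 4093 and 3946, and into 2055 and 6617, in place of 3633 and 3397. With equal upper quartiles they split into 2920 and 5558, and into 2576 and 5110. The 7 Oas genes stayed higher and called under each scaling, with no difference under 3.26.

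The make-up of the family changed with LPS. Levels of different genes were compared per kilobase of exon, as normalized count per kb. The ranks and shares of Oas1a and Oas1g remain uncertain because of their shared stretches. Exon lengths were those of GENCODE vM21, whereas the study's methods name an earlier GENCODE release for the counting. In control PMφs Oas1a was the most abundant, with a mean of 272 per kb, followed by Oas3 at 149, Oasl2 at 97.1 and Oasl1 at 53.0, and the ranges of these neighbours did not overlap. Below them Oas2, Oas1g and Oas1b had means of 40.1, 33.0 and 25.4, and each overlapped its neighbour. In LPS-treated PMφs the order was Oasl1 at 10076, Oasl2 at 4725, Oas1a at 3653, Oas3 at 2424, Oas2 at 1789, Oas1g at 1680 and Oas1b at 497. The ranges of Oasl1 and Oasl2, of Oas1a and Oas3, and of Oas1g and Oas1b were apart, while the other neighbours overlapped. Oasl1, which lacks synthetase activity, thus went from the fourth rank of the means to the first.

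As a share of the summed level per kb of the 7 genes, Oas1a made up 40.6% ± 0.336 (SD, n = 3) in control and 41.1% ± 2.13 in oxLDL libraries, and 14.8% ± 1.69 in LPS and 14.8% ± 2.49 in oxLDL+LPS libraries. Oasl1 made up 7.98% ± 1.22 and 10.0% ± 1.08 without LPS, and 40.4% ± 6.59 and 44.3% ± 8.11 with LPS. The summed level was 670 ± 65.7 per kb in control and 609 ± 110.2 in oxLDL libraries, and 24844 ± 3945 in LPS and 22515 ± 2467 in oxLDL+LPS libraries. LPS raised it 37.1-fold without and 37.0-fold with oxLDL, as ratios of the means and with no test. With the longest transcript as the length, the shares of Oas1a were 31.3%, 32.0%, 10.9% and 11.0% and those of Oasl1 were 7.30%, 9.22%, 36.0% and 39.6%, in the same order of groups, so Oas1a led without LPS and Oasl1 with LPS under either length.

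**Figure D2:**
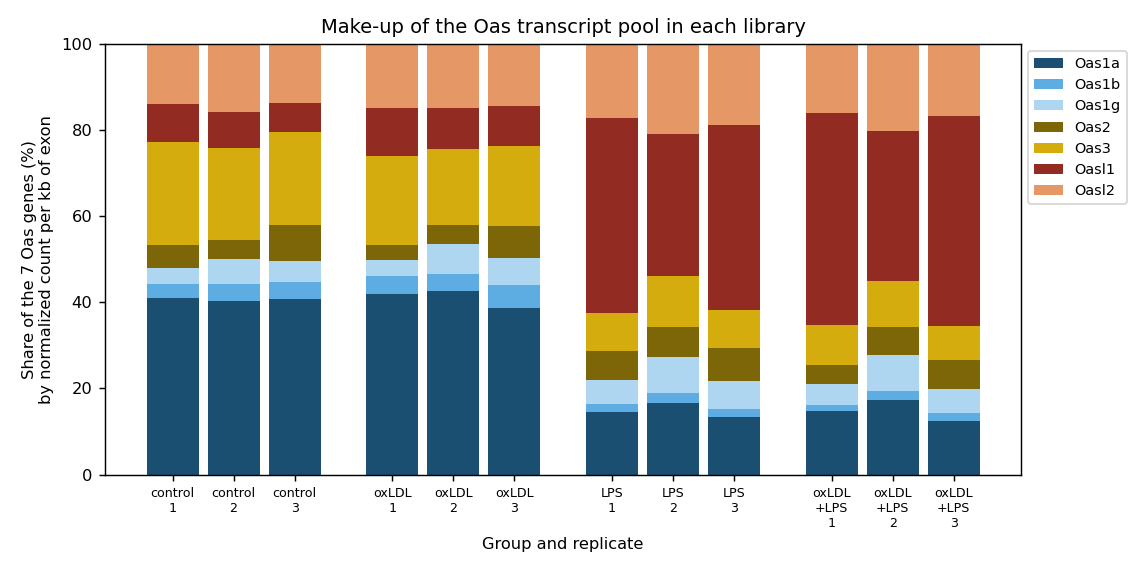
Share of each Oas gene in the summed normalized count per kb of exon of the 7 genes (stacked bars, %), for each library. Oas1a is the largest block in the 6 libraries without LPS, at 38.6% to 42.6%, and Oasl1 in the 6 with LPS, at 32.9% to 49.2%.

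Oas1c and Oas1h were the other paralogs that could be tested. Oas1c, a member without synthetase activity whose start lies head to head with that of Oas1b at a distance of 121 bases, was 56, 66 and 74 in control and 272, 215 and 329 in LPS libraries. Its difference with LPS was 2.03 ± 0.20 on the log2 scale (limma adjusted p = 9.82e-05), smaller than that of any of the 7 members. Oas1h was at 0 to 2 in control libraries and at 17, 28 and 31 with LPS. Oas1e was at 0 in all 12 libraries, and Oas1d and Oas1f were at 5 or less. The gene Gm13822, which lies on the opposite strand of Oasl1, was at 1 to 3 without LPS and at 64 to 103 with LPS, under 1% of the level of Oasl1 in LPS-treated cells.

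Of the 4 genes listed for the handling of 2-5A and double-stranded RNA, Abce1, Pde12, Akap7 and Adar, LPS raised 2 in either comparison, with medians of 0.30 and 0.27. Adar, which edits double-stranded RNA and so keeps it from the sensors, rose by 2.94 ± 0.13 and by 2.77 ± 0.10 on the log2 scale. Abce1, an ATPase that also splits ribosomes, differed by 0.45 ± 0.11 and 0.39 ± 0.10, which were called (limma adjusted p = 0.0108 and 0.0161) but not under other scalings, where the first became 0.20 with equal upper quartiles and -0.033 with equal totals. Pde12, which degrades 2-5A, differed by 0.15 ± 0.12 and 0.16 ± 0.09 and did not pass the test. Akap7, which also holds a 2-5A phosphodiesterase domain, differed by 0.08 ± 0.16 and -0.22 ± 0.16 and did not pass either.

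Transcript levels of genes on the route from LPS to the Oas genes were also compared, and the route itself was not tested. Of 8 genes from TLR4 to TRIF, 5 rose with LPS in PMφs without oxLDL and Tlr4 was called lower, with a median of 0.38. Cd14, the coreceptor of LPS, rose by 3.78 ± 0.14, whereas Tlr4 itself differed by -0.34 ± 0.14 (limma adjusted p = 0.0800), a call lost with no filter on low values, with no variance trend and without any 1 of 5 of the 6 libraries. Of the interferon genes, Ifna4 was at 0 in all 12 libraries and Ifnb1 was at 0 without LPS, at 8, 5 and 13 with LPS and at 4, 2 and 8 with oxLDL+LPS, too low to test. The receptor chains and their kinases rose, 4 of 4 tested, among them Ifnar1 by 1.73 ± 0.14 and Ifnar2 by 1.65 ± 0.15. The smallest rise among the 7 Oas genes was larger than either.

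Of 6 genes listed for ISGF3 and the IRF factors, 4 rose, with a median of 3.29. Stat2 rose by 4.49 ± 0.14, Irf9 by 2.08 ± 0.13 and Irf7, the amplifier of interferon production, by 6.77 ± 0.19. Irf3, which is activated as a protein, differed by -0.16 ± 0.12 and Irf8 by 0.15 ± 0.22, and neither passed the test. All 7 genes of the list named brakes on interferon signalling rose, with a median of 6.23. Beside Usp18, Socs1 and Socs3 the list holds Isg15, Trim30a, Trim30d and Nlrc5, and the action of its genes as brakes was not tested. Usp18, which blocks the receptor, rose by 7.11 ± 0.15 and Isg15 by 8.60 ± 0.15. Socs1 and Socs3, inhibitors of JAK kinases, rose by 6.23 ± 0.30 and 6.50 ± 0.23.

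Among 8 other sensors of nucleic acid, 7 rose, with a median of 4.26. Eif2ak2, which encodes the double-stranded RNA kinase PKR, rose by 3.82 ± 0.09, Ifih1 (MDA5) by 5.57 ± 0.15 and Tlr3 by 4.29 ± 0.16. Mavs, the adaptor of the RIG-I-like receptors, was called lower, at -0.48 ± 0.14 (limma adjusted p = 0.0234). All 10 genes of the IFIT and Mx list rose, with a median of 9.77, from Bst2 at 3.43 ± 0.09 to Mx1 at 10.25 ± 0.24. With oxLDL present the counts of called genes in these lists were the same or within 1 of these. Tlr4 and Mavs were not called there, and Irf8 was called lower, at -0.59 ± 0.14 (limma adjusted p = 0.00986).

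**Figure D3:**
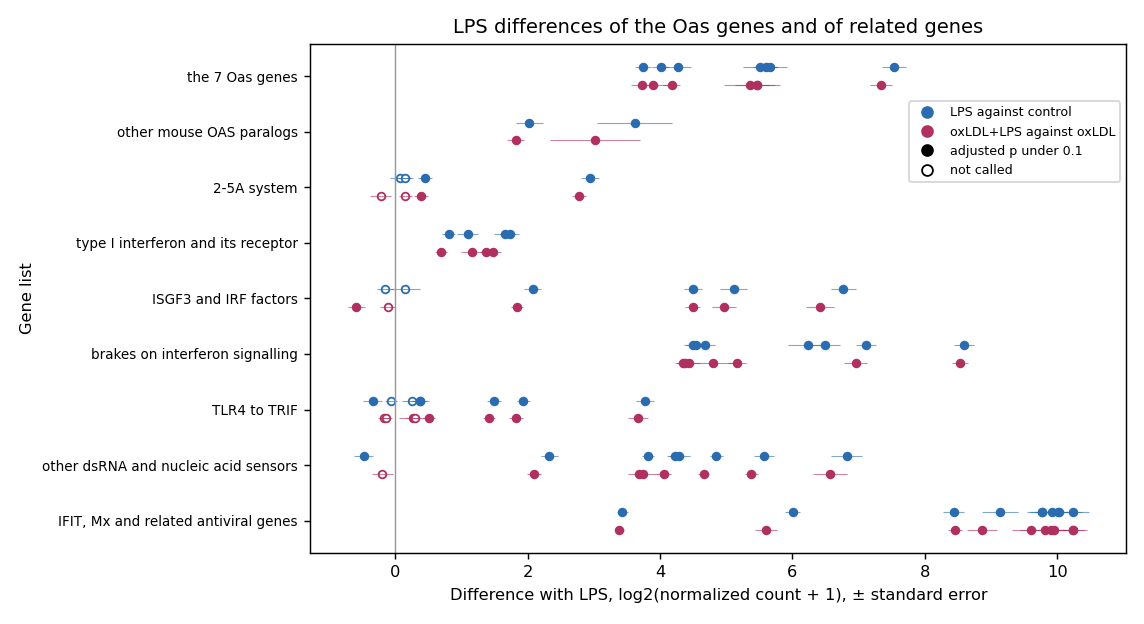
Difference with LPS on the log2(normalized count + 1) scale, with standard errors, for each gene tested in the lists named on the vertical axis, in LPS against control (blue) and oxLDL+LPS against oxLDL (red). Filled points passed an adjusted p under 0.1. The 7 Oas genes lie between 3.73 and 7.53.

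Without LPS, oxLDL accumulation was not seen to change the family in the fit without pairing. limma called 0 of 12751 genes (0%) for oxLDL against control, with 381 genes, or 2.99%, at an unadjusted p under 0.05. Of the members only Oas3 had groups that did not overlap. Its 3 oxLDL values, 757, 921 and 760, lay under its lowest control value of 1005, as was so in the lower direction for 3.91% of all genes tested. The difference of Oas3 was -0.38 ± 0.09 on the log2 scale (limma adjusted p = 1). When libraries of 1 number were paired, it was called (standard error 0.06, limma adjusted p = 0.0128), among 601 genes, 4.71% of those tested, of which the 372 lower ones made up 2.92%, and it was the only member called. Oas3 remained called in the blocked fit when any 1 number was left out, with adjusted p of 0.0965 without replicate 1, 0.0314 without replicate 2 and 1.04e-05 without replicate 3.

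The other 6 members had overlapping groups. Oas2 differed by -0.40 ± 0.37, Oas1a by -0.13 ± 0.15 and Oasl2 by -0.12 ± 0.16. Oasl1 differed by 0.18 ± 0.15, Oas1b by 0.10 ± 0.23 and Oas1g by 0.03 ± 0.39. Within replicate numbers, Oasl1 was higher with oxLDL in 3 of 3, by 0.13, 0.24 and 0.19 (blocked limma adjusted p = 0.406), as were 17.5% of all genes, and Oas3 and Oasl2 were lower in 3 of 3, as were 19.4%. In the blocked fit Stat2 was called at -0.25 ± 0.05 (limma adjusted p = 0.0281), and Ikbke, a kinase that phosphorylates IRF3, at -0.33 ± 0.06 (limma adjusted p = 0.0138). Rsad2, an antiviral effector, was called there at -0.28 ± 0.07 (limma adjusted p = 0.0606), as were Tlr4 at -0.18 ± 0.05 and Traf3 at -0.20 ± 0.05 (limma adjusted p = 0.0830 and 0.0891). Abce1 was called higher, at 0.19 ± 0.05 (limma adjusted p = 0.0957), beside 1.8% of all genes tested.

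After LPS, the levels of the 7 Oas genes had lower means in PMφs with accumulated oxLDL, but none passed the test in the fit without pairing. limma called 0 of 12786 genes (0%) for oxLDL+LPS against LPS, with 890 genes, or 6.96%, at an unadjusted p under 0.05. All 7 members had a negative difference, as did 52.2% of all genes tested, and 5 of the 7, all but Oas1a and Oasl1, were lower in each of the 3 replicate numbers, as were 24.4% of all genes. The groups overlapped for all 7, whereas 6.39% of all genes had groups that did not overlap in the lower direction. The median difference was -0.25, against -0.01 over all genes tested.

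Oas2 differed most, by -0.45 ± 0.25 (limma adjusted p = 0.752), with differences of -0.69, -0.19 and -0.46 in replicate numbers 1 to 3. Oas1g differed by -0.28 ± 0.29, Oas1b by -0.26 ± 0.23, Oasl2 by -0.25 ± 0.20 and Oas3 by -0.21 ± 0.18. Oas1a differed by -0.14 ± 0.15. The level of Oasl1 was nearly the same in both groups, with differences of -0.02, 0.05 and -0.06 in the 3 numbers and -0.01 ± 0.24 in the fit. In the paired fit, blocked by replicate number, limma called 1682 genes (13.2%), of which 8.74% of those tested were lower. Oas2 was then called (standard error 0.10, adjusted p = 0.0332), as was Oas1b (standard error 0.09, adjusted p = 0.0981), and Oas1g was not (adjusted p = 0.101). These calls were lost without replicate 1 or replicate 3. Without replicate 1 the block called 71 genes and without replicate 3 it called 0 genes, and neither fit called a member, while without replicate 2 it called 2945 genes and 4 members. The summed markers of mesothelial cells and fibroblasts were 17439, 8195 and 3206 in LPS and 10309, 9113 and 2843 in oxLDL+LPS libraries, lower in replicates 1 and 3 with oxLDL, and their part in these differences was not tested.

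**Figure D4:**
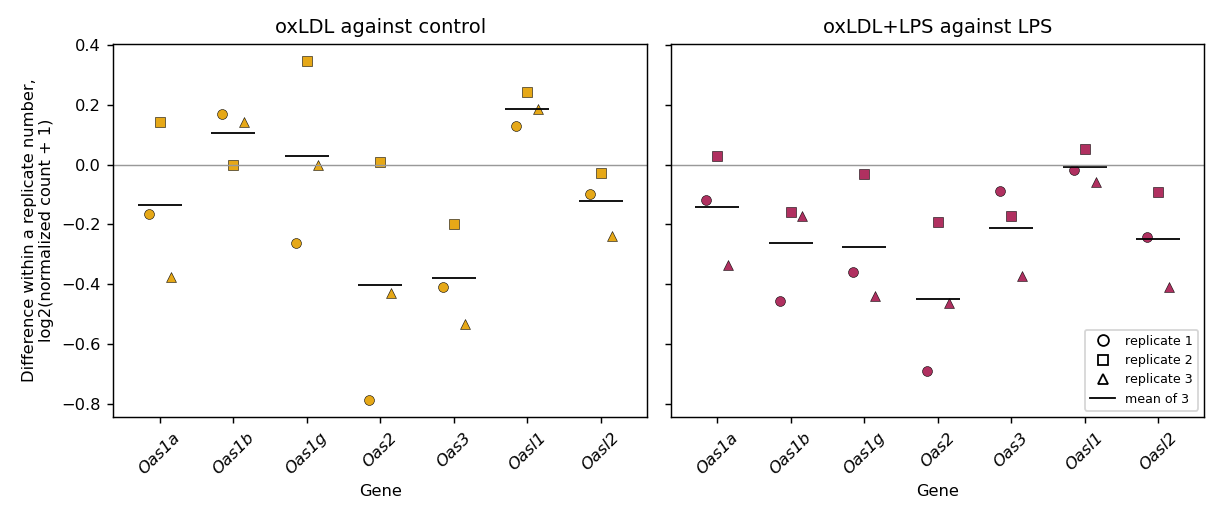
Difference between oxLDL and control (left) and between oxLDL+LPS and LPS (right) on the log2(normalized count + 1) scale within each replicate number (symbols), with their mean (line), for the 7 Oas genes. On the left only Oas3 and Oasl2 lie below 0 in all 3 numbers and Oasl1 above; on the right Oas1b, Oas1g, Oas2, Oas3 and Oasl2 lie below 0 in all 3.

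Among the related genes, beside 8.74% of all genes tested called lower, the blocked fit called 3 of the 10 IFIT and Mx genes lower after LPS with oxLDL, namely Mx2 at -0.44 ± 0.12, Isg20 at -0.44 ± 0.10 and Ifi44 at -0.45 ± 0.11 (limma adjusted p = 0.0639, 0.0312 and 0.0386). Of the 7 genes of the list named brakes on interferon signalling, whose action as brakes was not tested, it called 4 lower, namely Socs1, Socs3, Trim30d and Nlrc5. Socs3 was at -1.18 ± 0.15 and Socs1 at -1.03 ± 0.14 (limma adjusted p = 0.00559 and 0.00648), and for both the groups did not overlap. Ifnar1 was called at -0.42 ± 0.09 and Irf8 at -0.83 ± 0.20 (limma adjusted p = 0.0314 and 0.0389). Of the 4 genes listed for 2-5A and double-stranded RNA it called 1 lower, Akap7, at -0.35 ± 0.10 (limma adjusted p = 0.0781). Of the 8 genes from TLR4 to TRIF it called 3 lower, Cd14, Ticam1 and Ikbke, at -0.35 ± 0.11, -0.26 ± 0.08 and -0.45 ± 0.10. Of the 8 sensors it called Tlr3 at -0.46 ± 0.10 and Zbp1 at -0.36 ± 0.10 (limma adjusted p = 0.0304 and 0.0582), while Mavs was called higher, at 0.31 ± 0.08 (limma adjusted p = 0.0522), beside 4.42% of all genes tested. Without replicate 3 the blocked fit called none of these, since it called 0 genes. None of these genes was called in the fit without the block.

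Whether oxLDL altered the LPS response itself was tested as the interaction over all 12 libraries. limma called 0 of 13482 genes (0%), with 418, or 3.1%, at an unadjusted p under 0.05. The interaction was -0.37 ± 0.33 for Oas1b, -0.30 ± 0.52 for Oas1g, -0.19 ± 0.27 for Oasl1 and -0.13 ± 0.26 for Oasl2. It was -0.05 ± 0.49 for Oas2, -0.01 ± 0.22 for Oas1a and 0.17 ± 0.20 for Oas3. Because the sex transcripts of replicate 1 differed between the LPS states, the fit was repeated with the number as a block within each state, an alternative chosen after seeing the data. It called 147 genes (1.09%), none of the 7 members, with adjusted p from 0.262 for Oas1b to 0.987 for Oas1a. Socs1 and Socs3 were called, at -1.43 ± 0.22 and -1.33 ± 0.24 (limma adjusted p = 0.0494 and 0.0621). The planned fit, with the number as 1 block across both states, called 0 genes. Socs1 and Socs3 were not called there (limma adjusted p = 0.657 for each).

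The values also followed the replicate number. In each of the 4 groups replicate 1 had the lowest value for 6 of the 7 members, all but Oasl1. The highest library of a group was 1.09 to 2.75 times the lowest for these 6 genes. Oasl1 was lowest in replicate 3 without LPS and in replicate 2 with LPS. As deviations from the group means over the 12 libraries, the other 6 genes went together, with Pearson r from 0.39 for Oas2 and Oas3 to 0.90 for Oas1g and Oasl2, while Oasl1 had r of -0.19 to 0.23 with them. These r values share the libraries and their scaling and are given as a description. The summed markers of mesothelial cells and fibroblasts were highest in replicate 1 of each group, at 13737, 11018, 17439 and 10309, and lowest in replicate 3, at 3186, 3466, 3206 and 2843. Their part in the lower Oas values of replicate 1 was not tested.

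The genes whose levels over the 12 libraries were most like the mean standardised profile of the 7 members were Xaf1, Herc6, Zbp1, Ifi203, Samd9l, Parp9, Phf11d, Uba7, Mndal and Slfn1. Their Pearson r with that profile was 0.999 to 1.00 on the log2 scale, as a description over libraries that fall into a cluster with and a cluster without LPS. Of the 13475 genes compared, 1566, or 11.6%, had an r over 0.95. Xaf1, the first of the 10, had group means of 140 in control, 121 in oxLDL, 6002 in LPS and 5047 in oxLDL+LPS libraries. After the mean of each replicate number was removed, 2 of the 10, Xaf1 and Herc6, were still among the 10 most alike. Of the 4 genes listed for 2-5A and double-stranded RNA, Adar had the highest r, at 0.999.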

How the data were processed

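Poly(A) RNA of 12 PMφ cultures was made into directional libraries and sequenced. Per the labels and the study's methods, reads were trimmed with Trimmomatic (version 0.32), aligned to mm10 (GRCm38) with STAR (version 2.5.1b) and counted per GENCODE gene with featureCounts, and groups were compared with DESeq2. The strand setting of the counting is not given in the sources used here. The signal deposited by the authors has whole numbers only, spaced within a library like counts that were divided by 1 factor (0.708 to 1.31) and rounded, so tests for raw counts were not run. In 25 rows a date stood in place of the symbol. These rows stayed in the table and entered the fits where they passed the filter.

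Groups were compared with limma (version 3.58.1, R 4.3.3; lmFit, eBayes with a variance trend) on log2(value + 1), for genes that reached 10 in 3 or more of the libraries compared, and called at a Benjamini-Hochberg adjusted p under 0.1. Each pairwise fit used the 6 libraries it compares, and the interaction all 12. The fit was tested on simulated counts that held no effect of the replicate number, so that test cannot tell whether to block by it. Same-numbered libraries deviated together in every comparison (r of 0.691 to 0.731 for oxLDL against control, 0.664 to 0.733 for oxLDL+LPS against LPS, 0.330 to 0.665 across LPS), and the methods divide pooled cells among the groups, so a fit blocked by replicate number stands beside the main one. Replicates are separate libraries, the sources used here do not say of which mice, and p-values measure the spread between these libraries.

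Some genes of the pathway lists are not reported here. Named were the 7 members, genes of these lists and the 10 genes most alike. Members and lists were chosen with earlier results of these data known. Alternatives were the pseudocount, the filter, the scaling, the variance trend, the threshold, the libraries fitted, the block and leaving out libraries.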

Additional observations from a re-analysis of the deposited data

How the results depend on the processing

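For LPS against control and oxLDL+LPS against oxLDL, the 7 Oas genes stayed higher and called in all 126 refits of each comparison, with differences of 3.26 to 7.79 and of 3.34 to 7.60 on the log2 scale. The replicate block moved oxLDL against control from 0 to 601 genes and to 1 member, and oxLDL+LPS against LPS from 0 to 1682 genes and to 2 members; it changed no other call of an Oas gene. The same alternatives were added for the pathway genes after seeing the data. With 1 number left out the blocked counts were 139 to 1285 genes (214 without replicate 1) and 1 to 2 members for oxLDL against control, and 0 to 2945 genes (71 without replicate 1) and 0 to 4 members for oxLDL+LPS against LPS. For oxLDL+LPS against LPS, all 12 libraries in 1 fit called 29 genes, and leaving out 1 library called 0 to 91 genes, the latter without oxLDL+LPS replicate 2. For the interaction, leaving out 1 library called 0 to 6 genes, leaving out 1 number with the block 0 to 9 genes, and the block within each LPS state 147 genes. The cause of these moves was not tested.

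Signs turned only for differences that were not called, except that of Abce1. Scaled to the same total, the Abce1 difference for LPS against control became -0.033, the Oasl1 difference for oxLDL+LPS against LPS 0.083, and the interactions of Oas1a and Oas2 0.085 and 0.047. With equal upper quartiles the Oasl1 difference was 0.034 and the Oas1a interaction 0.021. With 1 library left out, the differences for oxLDL against control ran from -0.071 to 0.25 for Oas1b and from -0.30 to 0.42 for Oas1g, and that of Oasl1 for oxLDL+LPS against LPS from -0.19 to 0.17. The interactions then ran from -0.14 to 0.16 for Oas1a, from -0.70 to 0.023 for Oas1g, from -0.39 to 0.24 for Oas2 and from -0.28 to 0.023 for Oasl2. In blocked fits with 1 number left out, signs also turned for some members. Oas1g then reached -0.13 for oxLDL against control, and Oasl1 0.018 for oxLDL+LPS against LPS. The interaction reached 0.044 for Oas1a and 0.032 for Oas2. With the longest transcript as the length, the share of Oas1a was 31.3% in control, 32.0% in oxLDL, 10.9% in LPS and 11.0% in oxLDL+LPS libraries. Oas3 and Oasl2 then exchanged ranks in oxLDL libraries, leaving 5 of 7 at their rank. After removal of the number means, 2 of the 10 genes most alike remained. With 3 libraries a group, the fit without pairing called no gene for oxLDL, and calls of the paired fit after LPS depended on the numbers kept.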
